A study of Mus musculus with 6 samples.

Results

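The transcripts described here belong to the amino acid response driven by the transcription factor ATF4, together with the cytosolic aminoacyl-tRNA synthetases, in DP42 murine myeloma cells. The members were 34 listed genes, 22 of the ATF4 pathway and 12 synthetases, and each was read from the brightest probe set over the 6 arrays that the platform annotation pairs with that gene alone. By this rule 32 of the 34 were measured, among 22180 genes in all. Pycr1, a proline synthesis enzyme, and Aars, the alanyl-tRNA synthetase, had no probe set of their own in the annotation and were not analysed here, which left 21 ATF4 pathway members and 11 synthetases. The methionyl-tRNA synthetase is given under its annotated symbol, Mars1.

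DP42 cells are a mouse line of multiple myeloma, a cancer of plasma cells. The study asked how neutrophils act on such cells, with B cells as the control partner. Myeloma cells were kept for 24 h by themselves, together with B cells, or together with neutrophils, which the labels also call IMC and describe as myeloid cells, and the partners were then parted by flow sorting before RNA extraction. Each of the 3 groups had 2 Affymetrix arrays, the labels give no further genotype, treatment or culture information, and nothing in them says that the replicates came from separate cultures, so p-values here measure a spread that may be technical.

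When an amino acid runs short, uncharged tRNA activates the kinase GCN2, which phosphorylates the translation factor eIF2α. General translation then slows while translation of Atf4 mRNA increases, so that ATF4 protein can accumulate with little change of its mRNA. ATF4, often paired with a C/EBP protein, binds composite elements near genes that make amino acids, import them and load them onto tRNA, among them several synthetases. The kinases PERK, PKR and HRI reach the same switch from unfolded proteins in the endoplasmic reticulum, double-stranded RNA and haem shortage. Plasma cell tumours secrete much protein and are known for a high demand on this system.

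The composite element is shown first because ATF4 is known to bind such elements near some genes of both classes. Promoter windows of 300 bases around the annotated start (RefSeq, GRCm38.p6) were searched on both strands for TGATGNAA, where N is any base. Of the 32 measured members, 24 had at least 1 window, and 8 of their 26 windows (30.8%) held the motif, against 1304 of 32851 windows of all genes (3.97%). The members with it were 4 of 17 ATF4 pathway genes and 4 of 7 synthetases with a window. In the 49 further pathway genes described below, 7 of 48 windows (14.6%) held it, none of them in a synthetase gene. The form TGATGCAA lay in 5 members and in 0.895% of all windows. The members were listed as known or likely ATF4 targets, so these counts describe the list, and a match is not a measured binding site. Each line gives 60 bases of the gene's own strand, 5′ to 3′, with the motif in capitals. TTNCATCA is the same motif read from the other strand.
Trib3: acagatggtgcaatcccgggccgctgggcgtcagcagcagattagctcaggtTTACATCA
Chac1: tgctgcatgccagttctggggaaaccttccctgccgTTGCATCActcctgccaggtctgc
Asns: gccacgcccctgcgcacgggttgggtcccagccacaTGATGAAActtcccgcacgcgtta
Slc7a11: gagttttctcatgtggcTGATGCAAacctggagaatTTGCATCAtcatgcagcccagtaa
Gars: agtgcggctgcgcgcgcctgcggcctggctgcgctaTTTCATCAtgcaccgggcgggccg
Iars: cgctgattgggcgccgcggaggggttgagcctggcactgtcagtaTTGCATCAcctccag
Tars: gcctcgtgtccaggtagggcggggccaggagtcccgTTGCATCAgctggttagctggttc
Yars: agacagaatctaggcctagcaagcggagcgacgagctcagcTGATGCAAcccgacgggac

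The Trib3 stretch lies at chr2:152344039-152344098 on the minus strand, with the motif 14 bases downstream of the start. For Chac1 it is chr2:119351013-119351072 on the plus strand, 193 bases upstream. For Asns it is chr6:7693209-7693268 on the minus strand, 23 bases upstream. Slc7a11 has the motif on either strand within chr3:50443637-50443696, minus strand, the farther of its 2 copies starting 66 bases upstream. Among the synthetases, the Gars stretch is chr6:55037935-55037994 on the plus strand, 30 bases upstream, and the Tars stretch is chr15:11399650-11399709 on the minus strand, 15 bases upstream. The Iars stretch, chr13:49682092-49682151, and the Yars stretch, chr4:129189865-129189924, are on the plus strand with the motif 7 and 3 bases downstream of the start.

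Values are log2 signals, so a difference of 1 is a doubling, and differences are taken between arrays within a gene. Between genes, signals serve only to sort them by brightness, not to compare transcript amounts. Array medians over all probe sets lay between 7.09 and 7.22. Signal was good for most members: 28 of 32 were at or above the median brightness of all genes, including 11 of 11 synthetases. The exceptions were Asns, Chac1, Sesn2 and Slc7a11, and Slc7a11 was below the lower quartile of all 6 arrays. The plasma cell factors Irf4 and Xbp1 had signals of 10.68 to 10.98 and 9.90 to 10.18, while Sdc1, the plasma cell surface marker CD138, lay between 8.38 and 8.67. Of the 9 plasma cell markers measured, Mzb1, Slamf7 and Derl3 were also above median brightness. The others were not: Prdm1 lay between 6.70 and 6.97, and Tnfrsf17 and Jchain were below the lower quartile of all 6 arrays. The B cell factor Pax5 was at 10.94 to 11.08 in every group, also in cells cultured alone, although plasma cells normally silence it. Of the 9 mature B cell markers measured, Cd22, Cd79a, Cd79b, Ccr7 and Cd37 were above median brightness too, and Ms4a1, Cr2 and Fcer2a were not. Over 18 neutrophil markers the array mean was 6.48 and 6.55 alone, 6.50 and 6.62 beside B cells, and 6.89 and 6.95 beside neutrophils. Ngp, a neutrophil granule protein, stood at 5.57 and 5.76, at 5.93 and 6.11, and at 7.27 and 7.70 in the same order, and Ly6c2, a myeloid surface protein, at 5.71 and 5.75, 5.53 and 5.70, and 7.14 and 7.12. Ly6c2 stood out in its list: the 9 monocyte and macrophage markers measured had a median difference of 0.0225 with neutrophils against B cells and -0.0194 against alone. What part RNA from the partner cells had in the members' values was not tested, and in such sorted bulk RNA fewer cells of a type cannot be told apart from less RNA per cell.

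No member passed the test in any of the 3 comparisons (limma with Benjamini-Hochberg adjustment over all 22180 genes, threshold 0.05). With neutrophils against with B cells 0.0496% of all genes passed (0.0316% higher and 0.018% lower). With neutrophils against alone 1.49% passed (0.131% higher and 1.36% lower), and with B cells against alone 0.0%. At an unadjusted p under 0.05 the members counted 3, 1 and 0 in these comparisons, all higher, where 8.1%, 5.97% and 1.61% of all genes were higher by that measure and 12%, 11.7% and 2.3% were lower. The 95% interval of each of the 32 members lay within a 1.5-fold difference either way in all 3 comparisons, as it did for 84.4%, 85.6% and 94.7% of all genes. The lowest bound was a ratio of 0.683, 0.682 and 0.740, and the highest was 1.44, 1.43 and 1.45. These intervals are of single genes and are not adjusted for the number of genes, and RMA compresses differences near background, which touches Slc7a11 most.

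**Figure D1:**
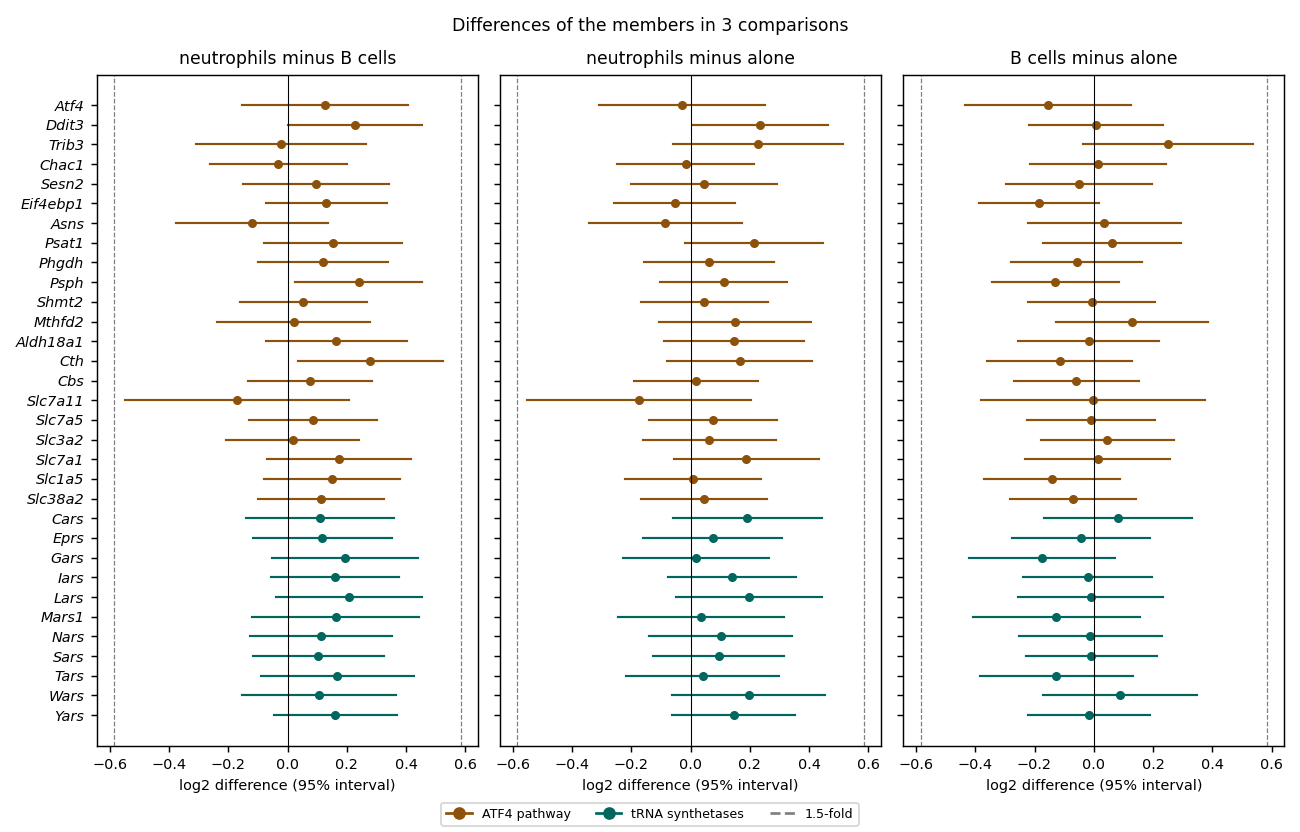
Fitted log2 differences of the 32 measured members in the 3 comparisons, as points with 95% intervals. Every interval lies within a 1.5-fold difference either way, and the synthetases lie close together above 0 where neutrophil co-culture is compared with B-cell co-culture.

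Atf4, Asns and Chac1, picked for their role, had differences below 0 with neutrophils against alone, none past the test, and of mixed sign against B cells. Most ATF4 pathway members went the other way against alone, with 16 of 21 above 0, among them Ddit3 by 0.24 and Trib3 by 0.23. Asns and Chac1 were below the median brightness of all genes. Atf4 itself stood at 9.21 and 9.25 alone, 9.25 and 8.90 beside B cells, and 9.22 and 9.18 beside neutrophils. Asns, which makes asparagine and is a standard readout of amino acid shortage, was at 7.18 and 7.26 alone, 7.12 and 7.40 beside B cells, and 7.13 and 7.14 beside neutrophils. Chac1, which degrades glutathione and is among the most inducible ATF4 targets, was at 7.30 and 7.17, 7.32 and 7.17, and 7.21 and 7.22. For Atf4 and Chac1 the groups overlapped in every comparison, and for Asns the neutrophil arrays lay below the alone arrays. With neutrophils against alone the difference was -0.028 ± 0.12 (SE) for Atf4, -0.085 ± 0.11 for Asns and -0.017 ± 0.10 for Chac1. As ratios the 95% intervals ran from 0.808 to 1.19 for Atf4, from 0.789 to 1.13 for Asns and from 0.842 to 1.16 for Chac1.

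With neutrophils against with B cells, 28 of 32 members had a difference above 0, against 51.7% of all genes, and adjusted p-values in limma ran from 0.220 to 0.922. The arrays did not overlap, with neutrophils the higher, in 17 members, and in 0 the other way, where 30.0% and 26.7% of all genes did so. Among the genes at or above median brightness, to which most members belong, 80.1% were above 0 and 52.1% had neutrophil arrays all higher, near the members' 87.5% and 53.1%. The ATF4 pathway members had a median difference of 0.11, ranging from -0.17 to 0.28, and 17 of 21 were above 0. The synthetases had a median of 0.16, ranging from 0.10 to 0.21, and 11 of 11 were above 0. After quantile normalisation the medians were 0.048 and 0.052. The median over all genes was 0.011, and over the genes at or above median brightness it was 0.13.

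Cth, which makes cysteine from cystathionine, stood at 9.16 and 9.17 alone, 9.17 and 8.92 beside B cells, and 9.35 and 9.31 beside neutrophils. Both neutrophil arrays were above the other 4, and the difference from B-cell co-culture was 0.28 ± 0.11, the largest among the members, with an adjusted p of 0.220 in limma. Psph, the last enzyme of serine synthesis, was at 8.17 and 8.09 alone, 8.05 and 7.95 beside B cells, and 8.25 and 8.24 beside neutrophils. The B-cell arrays were the lowest and the neutrophil arrays the highest, and the neutrophil minus B-cell difference was 0.24 ± 0.094 with an adjusted p of 0.224 in limma. Ddit3, which encodes the stress factor CHOP, was at 8.59 and 8.44 alone, 8.57 and 8.48 beside B cells, and 8.79 and 8.71 beside neutrophils. Its neutrophil arrays were above all others, by 0.23 ± 0.10 over B-cell co-culture and an adjusted p of 0.249 in limma. Aldh18a1, which starts proline synthesis from glutamate, was at 9.39 and 9.49, 9.51 and 9.33, and 9.54 and 9.63, a difference of 0.17 ± 0.10 that is smaller than the gap between its B-cell replicates.

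**Figure D2:**
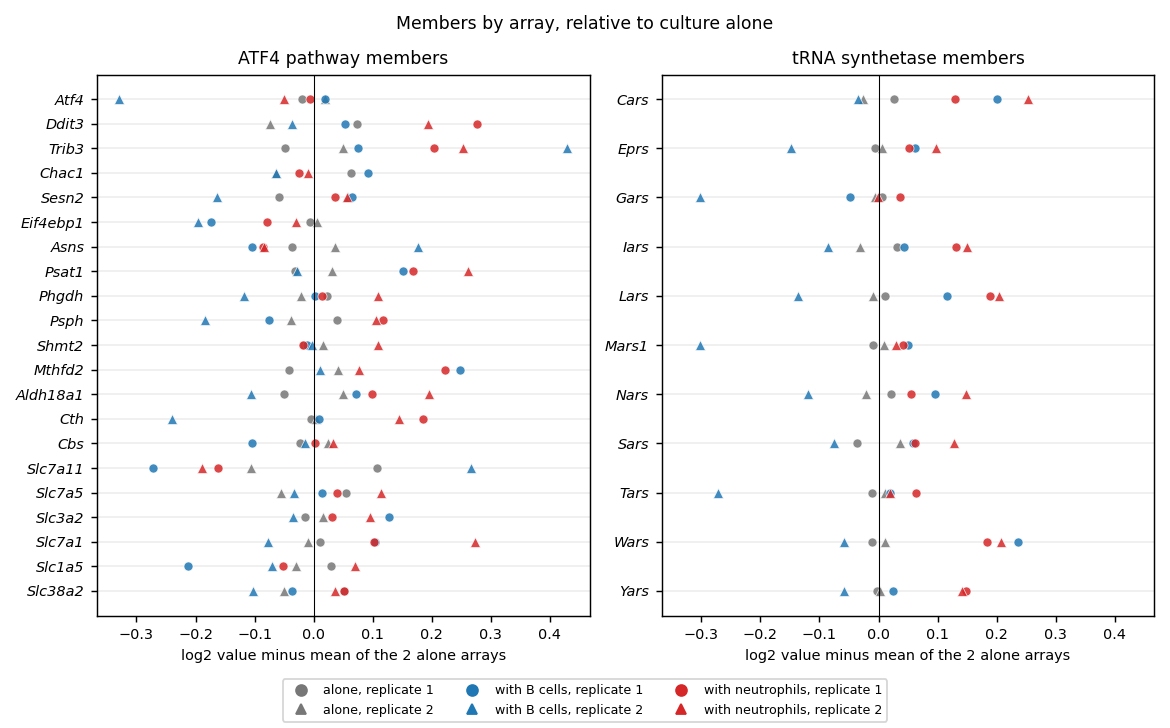
Each of the 32 members in each of the 6 arrays, as the log2 value minus the mean of its 2 alone arrays, with colours for groups and shapes for replicates. B-cell replicate 2, the blue triangle, is the leftmost point of all 11 synthetases and of 11 of 21 ATF4 pathway members.

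Among the synthetases, which load amino acids onto their tRNAs, the largest differences from B-cell co-culture with arrays apart were in Lars, Gars, Tars and Yars. Lars, for leucine, stood at 10.28 and 10.26 alone, 10.38 and 10.13 beside B cells, and 10.46 and 10.47 beside neutrophils. Gars, for glycine, was at 11.01 and 10.999, 10.96 and 10.70, and 11.04 and 11.003. Tars, for threonine, was at 9.95 and 9.97, 9.98 and 9.69, and 10.02 and 9.98. In each of these genes B-cell replicate 2 was the lowest array, and for Gars and Tars the neutrophil and alone arrays were nearly level. Yars, for tyrosine, was at 10.13 and 10.13, 10.15 and 10.07, and 10.28 and 10.27, with both neutrophil arrays above the rest. The differences were 0.21 ± 0.11 for Lars, 0.19 ± 0.11 for Gars, 0.17 ± 0.11 for Tars and 0.16 ± 0.091 for Yars, with adjusted p-values in limma of 0.292, 0.317, 0.381 and 0.318.

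The comparison with B cells depended on B-cell replicate 2. It was the lowest of the 6 arrays in 11 of 11 synthetases and in 22 of 32 members, against 31.7% of all genes and 56.6% of the brighter ones, and it lay below B-cell replicate 1 in 26 of 32 members, against 51.3% of all genes and 76.6% of the brighter ones. In the synthetases replicate 2 minus replicate 1 had a median of -0.23. Without it the synthetase median was 0.022, with 8 of 11 above 0, and the ATF4 pathway median was 0.076. Without B-cell replicate 1, so that replicate 2 stood alone for its group and was assumed to vary like the others, 7 of 32 members passed in limma, in a fit in which 24.6% of all genes passed, 11.7% higher and 12.8% lower. Those were Atf4, Cth, Gars, Lars, Mars1 and Tars, higher by 0.30 to 0.40, and Slc7a11, the cystine importer, with a difference of -0.44.

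With neutrophils against alone, 27 of 32 members were above 0, against 54.4% of all genes, with adjusted p-values in limma from 0.271 to 0.971. Neutrophil arrays lay above both alone arrays in 19 members and below them in 3 (Eif4ebp1, Asns and Slc7a11), where 35.6% and 27.4% of all genes did so. Among the brighter genes 79.7% were above 0 and 60.1% had neutrophil arrays all higher, near the members' 84.4% and 59.4%. The median difference was 0.061 in the ATF4 pathway members, from -0.17 to 0.24, and 0.10 in the synthetases, from 0.017 to 0.20, with 16 of 21 and 11 of 11 above 0 (8 of 11 synthetases after quantile normalisation). It was 0.021 over all genes and 0.11 over the brighter genes.

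Ddit3, whose values are given above, was higher than alone by 0.24 ± 0.10 with an adjusted p of 0.271 in limma. Trib3, a pseudokinase that damps ATF4 activity, stood at 7.33 and 7.43 alone, 7.46 and 7.81 beside B cells, and 7.59 and 7.64 beside neutrophils, so that either co-culture lay above culture alone. Its difference with neutrophils was 0.23 ± 0.13, with an adjusted p of 0.368 in limma. Psat1, the middle step of serine synthesis, was at 9.35 and 9.41, 9.53 and 9.35, and 9.55 and 9.64, and the difference from alone was 0.21 ± 0.10 with an adjusted p of 0.315 in limma. Slc7a1, an importer of arginine and lysine, was at 10.05 and 10.03, 10.15 and 9.97, and 10.14 and 10.32, with neutrophil replicate 2 above all other arrays. The other enzymes of the serine and folate branch, Phgdh, Psph, Shmt2 and Mthfd2, differed from alone by 0.061, 0.11, 0.046 and 0.15. Slc7a5 and Slc3a2, the chains of a large neutral amino acid transporter, differed by 0.077 and 0.063, and the glutamine transporter Slc38a2 by 0.044. Sesn2, a leucine-sensing inhibitor of mTORC1, and Cbs, the enzyme before Cth, differed by 0.046 and 0.018.

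Wars, for tryptophan and known to respond to interferon, stood at 10.29 and 10.31 alone, 10.54 and 10.24 beside B cells, and 10.49 and 10.51 beside neutrophils. Cars, for cysteine, was at 8.92 and 8.87, 9.10 and 8.86, and 9.03 and 9.15. In both genes B-cell replicate 1 lay with the neutrophil arrays and replicate 2 with or below the alone arrays. With neutrophils against alone the differences were 0.20 ± 0.11 for Lars, 0.20 ± 0.11 for Wars, 0.19 ± 0.11 for Cars and 0.14 ± 0.091 for Yars, with adjusted p-values in limma of 0.364, 0.391, 0.384 and 0.416. The other synthetases differed by 0.14 for Iars (isoleucine), 0.10 for Nars (asparagine), 0.095 for Sars (serine), 0.074 for Eprs (glutamate and proline) and 0.036 for Mars1 (methionine).

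With B cells against alone, 10 of 32 members were above 0, against 49.5% of all genes and 44.0% of the brighter ones, and every member had an adjusted p of 1.00 in limma. The arrays were apart in 5 members: Trib3 was higher, where 13.5% of all genes were, and Eif4ebp1, Psph, Slc1a5 and Gars were lower, where 13.5% were. Medians were -0.0098 in the ATF4 pathway members and -0.017 in the synthetases, the latter turning to 0.011 after quantile normalisation. These values depended on B-cell replicate 2 as well. Without it 23 of 32 members were above 0, with medians of 0.014 in the ATF4 pathway members and 0.058 in the synthetases, and without replicate 1 there were 4 of 32, with medians of -0.064 and -0.12. Trib3 had the largest difference, 0.25 ± 0.13, and its B-cell replicate 2 was the highest of the 6 arrays. Eif4ebp1, an inhibitor of cap-dependent translation, was at 11.47 and 11.48 alone, 11.30 and 11.28 beside B cells, and 11.40 and 11.44 beside neutrophils. Its B-cell arrays agreed closely with each other and lay below the other 4, and the difference from alone was -0.18 ± 0.089. Slc1a5, a glutamine importer, was at 12.24 and 12.18, 12.002 and 12.14, and 12.16 and 12.28. Its difference from alone was -0.14 ± 0.10, while a dimmer probe set of the same gene gave 0.084, so the probe sets disagreed in direction. For Psph and Gars it was -0.13 ± 0.094 and -0.18 ± 0.11.

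Ordered by role, the 6 regulators had median differences of 0.11 against B cells and 0.014 against alone. The 9 enzymes of amino acid synthesis had 0.12 and 0.11, and the 6 transporters had 0.10 and 0.053. Slc7a11 had a dimmer probe set as well, which gave -0.21 and -0.20 where the brighter gave -0.17 and -0.17. Members differed more among themselves in the ATF4 pathway than in the synthetases: the SD of the differences over members was 0.113 and 0.0372 against B cells, and 0.108 and 0.0663 against alone. The 4 dim members are all in the ATF4 pathway, and the part of brightness in that spread was not tested.

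The mean over each class, set against its own mean in culture alone, was also taken per array. For the ATF4 pathway members it was 0.0019 and -0.044 in the B-cell arrays and 0.053 and 0.084 in the neutrophil arrays. For the synthetases it was 0.078 and -0.14, then 0.099 and 0.12. All genes at or above median brightness had 0.035 and -0.070, then 0.075 and 0.090. In both classes the neutrophil arrays were above the others, and the brighter genes as a whole had the same order of co-culture arrays as the synthetases. The mean of 1394 olfactory and vomeronasal receptor genes, which myeloma cells are not known to use, moved the other way: 5.56 and 5.51 alone, 5.27 and 5.59 beside B cells, and 5.13 and 5.05 beside neutrophils. With that mean as a covariate the synthetase median became -0.11 against B cells and -0.20 against alone. The part of such array-wide shifts in the members' differences was not tested further.

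**Figure D3:**
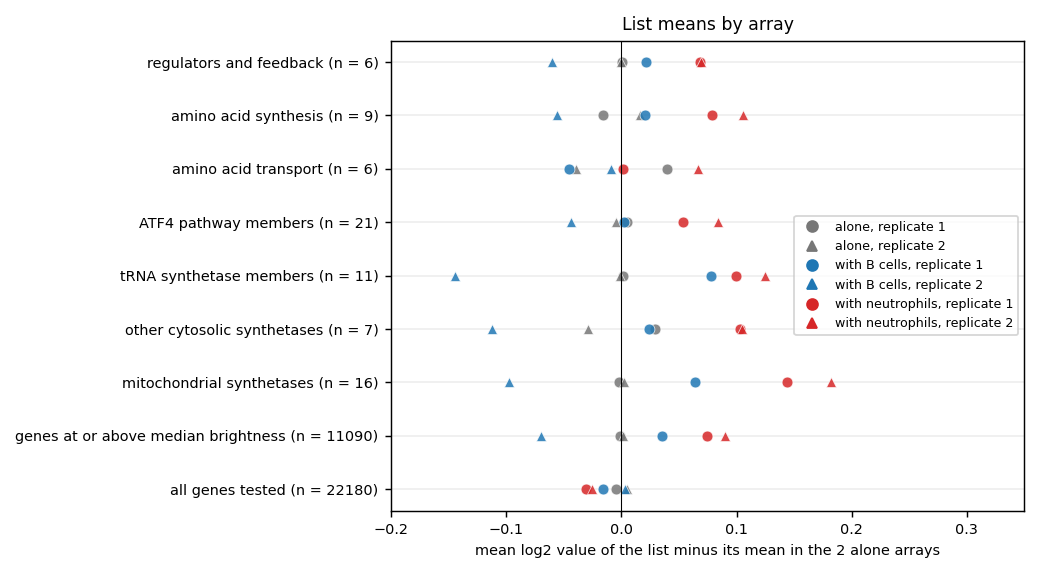
Mean log2 value in each of the 6 arrays, relative to the mean of the 2 alone arrays, for the members by role and class, the other synthetases, all brighter genes and all genes. The synthetases and the brighter genes share their order of co-culture arrays, with B-cell replicate 2 lowest (-0.14 and -0.070) and neutrophil replicate 2 highest (0.12 and 0.090).

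Beyond the members, 49 of 56 further genes of the pathway were measured, and 0 passed in limma in any comparison. B-cell replicate 2 was the lowest array in 33 of the 49, against 31.7% of all genes and 56.6% of the brighter ones. Without B-cell replicate 1, so that replicate 2 stood alone, the difference from B-cell co-culture was 0.74 for Eif2ak2, 0.63 for Ddit4 and -0.38 for Jdp2. The 7 other cytosolic synthetases had median differences of 0.16 against B cells and 0.11 against alone, close to those of the 11 listed ones. Vars, for valine, and Hars, for histidine, differed most from B-cell co-culture, by 0.23 and 0.21, and Qars, for glutamine, and Farsb, a subunit for phenylalanine, most from alone, by 0.18 and 0.14. Aimp1 and Eef1e1, scaffolds of the synthetase complex, were higher with neutrophils than with B cells by 0.24 and 0.17, and a dimmer Aimp1 probe set gave -0.12. The 16 mitochondrial synthetases were above 0 in 16 of 16 in both comparisons with neutrophils, with medians of 0.18 and 0.15. All 16 belong to the brighter genes, of which 80.1% and 79.7% were above 0, with medians of 0.13 and 0.11.

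Among the mitochondrial enzymes, Nars2, for asparagine, stood at 9.29 and 9.25 alone, 9.43 and 9.20 beside B cells, and 9.59 and 9.64 beside neutrophils, 0.34 ± 0.11 above alone with an adjusted p of 0.160 in limma. A dimmer Nars2 probe set went the other way, by -0.22. Pars2, for proline, was at 8.37 and 8.35, 8.56 and 8.45, and 8.70 and 8.65, the order alone, B cells, neutrophils holding for each array, and was 0.32 ± 0.094 above alone with an adjusted p of 0.150 in limma. Rars2, for arginine, was at 9.27 and 9.32, 9.40 and 8.92, and 9.50 and 9.53, and its difference of 0.35 from B-cell co-culture rested on the low B-cell replicate 2. Of the 16 further ATF4-linked genes, the mTORC1 inhibitor gene Ddit4 also had B-cell replicate 2 far below the rest, at 8.41 where the other arrays ran from 8.93 to 9.11. The AP-1 partner Jdp2, the stress cofactor Nupr1 and the secreted protein Stc2 differed with neutrophils from alone by -0.15, -0.18 and -0.19. Most of the 16 went the other way: 11 were above 0, with a median of 0.036, against 54.4% of all genes and 79.7% of the brighter ones. Jdp2 and Stc2 were below median brightness.

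The genes upstream of ATF4 held the largest difference in the pathway. Eif2ak2, which encodes PKR, the kinase activated by double-stranded RNA and itself induced by interferon, stood at 8.60 and 8.42 alone, 8.67 and 8.35 beside B cells, and 9.13 and 9.05 beside neutrophils. Both neutrophil arrays were above the other 4. The ratio was 1.496 (95% interval 1.23 to 1.83) against B cells, with an adjusted p of 0.133 in limma, and 1.49 (1.22 to 1.82) against alone, with an adjusted p of 0.0680 in limma, so neither passed. Against alone it passed in 5 of 12 distinct alternative fits, among them the replicate block (adjusted p 0.0417), with adjusted p-values from 0.0254 to 0.914. Against B cells it passed in 3 of 13, with a range of 0.00335 to 0.9997. The 3 were the dim-gene filter, the fit without B-cell replicate 1, which left 1 array in that group, and a crossed block of the 4 co-culture arrays. The crossed block, added after seeing the data, gave the lowest value, and 1437 of all genes passed in it. Leaving out an array of the third group gives the same fit as using only the 4 arrays compared, and was counted with it. Without any of the 4 alone and neutrophil arrays in turn it did not pass against alone (adjusted p 0.247 to 0.349), and against B cells it passed without B-cell replicate 1 (adjusted p 0.0178). All of the alternative fits had neutrophils the higher.

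The other eIF2α kinases differed less. Eif2ak1, encoding HRI, was at 9.58 and 9.49 alone, 9.72 and 9.35 beside B cells, and 9.83 and 9.78 beside neutrophils, with an adjusted p of 0.313 in limma against alone. Eif2ak3, encoding PERK, was at 8.59 and 8.62, 8.71 and 8.32, and 8.74 and 8.68, and Eif2ak4, encoding GCN2, at 9.997 and 9.98, 10.05 and 9.86, and 10.09 and 10.05. In each of the 4 kinases the neutrophil arrays lay above both alone arrays and B-cell replicate 2 was the lowest array. Both were common: the former held for 35.6% of all genes and 60.1% of the brighter ones, to which the kinases belong. The latter held for 31.7% and 56.6%. Ppp1r15a, encoding the phosphatase subunit GADD34 and itself an ATF4 target, was at 8.03 and 8.22, 8.27 and 7.92, and 8.06 and 8.12, with all groups overlapping. Ppp1r15b, the constitutive subunit, differed with B cells from alone by -0.16 ± 0.10.

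**Figure D4:**
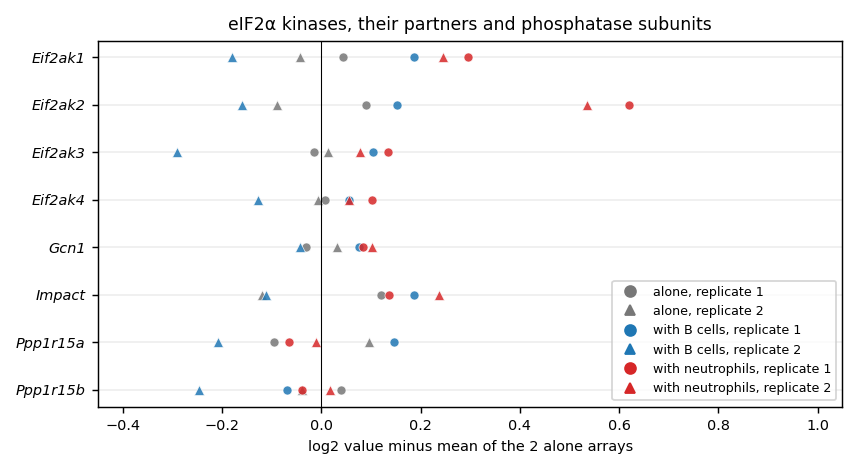
Log2 values of the 4 eIF2α kinase genes, Gcn1 and Impact, which encode a partner and an inhibitor of GCN2, and both phosphatase subunit genes in each of the 6 arrays, relative to the mean of the 2 alone arrays. The neutrophil arrays of Eif2ak2 (9.13 and 9.05 before that subtraction) stand apart from its other 4 arrays, which lie between 8.35 and 8.67.

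The differences were also set out by whether a member carried the composite element printed above. The 8 members with the motif had a median of 0.069 with neutrophils against B cells, 0.029 against alone, and -0.0098 with B cells against alone. The 16 members with a window and without the motif had 0.12, 0.069 and -0.031. Asns, Chac1 and Slc7a11 among the 8, and only Sesn2 among the 16, were below median brightness. The part of brightness in this split was not tested. Within the 8, Asns, Slc7a11 and Chac1 had differences of -0.085, -0.17 and -0.017 with neutrophils against alone, while Trib3, Iars and Yars were higher by 0.23, 0.14 and 0.14. Gars and Tars, the rest of the 8, differed from alone by 0.017 and 0.041.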

How the data were processed

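Log2 expression values per probe set were deposited by the authors, made with RMA (robust multi-array average) per the submitters' processing notes. RMA corrects background, equalises arrays and summarises probes, which can remove a shift shared by most genes. The deposited arrays were not fully level: over all probe sets their lower quartiles ran from 5.96 to 6.15. The array model and software version are not given in the sources used here.

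Of 41345 probe sets, 23521 named 1 gene in the platform annotation, 1814 named several and 16010 were unnamed. For 1082 genes with several, the brightest over 6 arrays was kept, giving 22180 genes. Groups came from the co-culture label. limma 3.58.1 (R 4.3.3) fitted group means on all 6 arrays, with 3 residual and 5.55 prior degrees of freedom, Benjamini-Hochberg adjustment over all genes and two-sided tests. Intervals are 95% and unadjusted, and ± is the SE of a fitted difference. The number of arrays limits the precision.

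The members and gene lists were chosen with earlier results of these data known, so lists are described by counts and medians with no list test. Values in every array are given for the 4 members per class and comparison with the largest difference among those whose arrays did not overlap, and for the eIF2α kinases. Other pathway genes named were the 2 with the largest difference per role and comparison. Atf4, Asns, Chac1 and the serine enzymes were added for their role. Alternatives were a dim-gene filter, eBayes trend and robust settings, quantile normalisation, median centring, averaged probe sets, 4 arrays, replicate block, each array left out and other thresholds. A covariate from receptor genes and a crossed block were added after seeing the data. The fit was tested on simulated data. Same-numbered replicates did not deviate together (correlations -0.0742, 0.0651 and -0.151), so numbers were not taken as pairs. Plots used matplotlib 3.10.9.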

Additional observations from a re-analysis of the deposited data

How the results depend on the processing

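In the comparison of neutrophil with B-cell co-culture, leaving out each array gave 0 to 7 passing members, the 7 coming without B-cell replicate 1, and an unadjusted threshold gave 3. Against alone an unadjusted threshold gave 1. In every other alternative run for the 3 comparisons, the replicate block (0 members) and the looser adjusted threshold of 0.1 included, 0 members passed. Medians moved with the receptor mean as a covariate, chosen after seeing the data: the synthetases to -0.11 against B cells and -0.20 against alone, and the ATF4 pathway members to -0.065 against alone. The synthetase median against alone was 0.033 after quantile normalisation, 0.14 after centring, and 0.063 to 0.14 without each array, and the cause was not tested. Against B cells, quantile normalisation gave 0.052 for the synthetases and 0.048 for the ATF4 pathway members, and without each array the synthetase median ran from 0.022 to 0.23. With B cells against alone it ran from -0.12 without B-cell replicate 1 to 0.058 without replicate 2. Because numbers share no stated origin, a crossed block of the 4 co-culture arrays was also fitted, and 0 members passed where 1437 genes did. Over all genes, 11 passed against B cells, with 0 to 5453 under the alternatives, and 331 against alone, with 0 to 1338 (9 and 373 with the replicate block). Centring gave 18 higher and 44 lower against B cells where the fit as reported gave 7 and 4. With 2 arrays a group, differences well under 1.5-fold are within the error of single genes.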
